A study of Homo sapiens with 4 samples.

Results

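REST is a zinc finger repressor that binds the RE1 element of neuronal genes, and its 9 listed corepressor genes encode the proteins through which it silences them. The 10 genes were chosen by symbol: REST, RCOR1, RCOR2, RCOR3, HDAC1, HDAC2, KDM1A, SIN3A, EHMT1 and EHMT2. All 10 were found by symbol among 69222 gene identifiers, and all 10 passed the filter on low counts that left 20319 tested genes. For EHMT2 the counts were close to 0. Read counts per gene from poly(A) RNA were available for 4 libraries of HEK293T, an established line from human embryonic kidney with the viral SV40 T antigen. Cells of both groups were transduced with a lentivirus: 2 libraries received a control hairpin RNA (shCtrl 1 and 2), and 2 received a hairpin against RPRD1B (shRPRD1B 1 and 2), a regulator that binds the tail of RNA polymerase II. The labels do not say how many hairpins, clones or separate cultures were used, so p-values measure the spread between these libraries, which may be technical.

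As background, REST reaches its sites through zinc fingers and recruits corepressors at both ends of the protein. The C-terminal arm binds RCOR1 (CoREST), a scaffold that holds the histone deacetylases HDAC1 and HDAC2 together with KDM1A (LSD1), which removes methyl groups from histone H3 lysine 4. The N-terminal arm binds SIN3A, another scaffold for HDAC1 and HDAC2, and EHMT1 (GLP) and EHMT2 (G9a) methylate histone H3 lysine 9. In non-neuronal cells REST keeps RE1-bearing neuronal genes low. RCOR2 and RCOR3 are paralogues of RCOR1.

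Library totals ranged from 47732913 to 65572391 counts. CPM below are counts relative to the library total, scaled by edgeR's TMM factors. Among 11541 genes of at least 5 CPM, the median size of the log2 ratio between the libraries of a group was 0.07 for shCtrl and 0.25 for shRPRD1B. RPRD1B was at 50.4 and 50.1 CPM in the controls, against 27.2 and 35.5 CPM after knockdown. Both knockdown libraries thus lay below both controls (log2 fold change -0.68 ± 0.16 SE, edgeR adjusted p = 0.448, DESeq2 adjusted p = 0.0467). All 8 markers listed for the HEK293 line were tested, with summed levels of 592 to 604 CPM in shCtrl and 520 to 629 CPM in shRPRD1B. Both knockdown libraries lay below both controls for 3 of the 8 and above for 1 (all genes: 20.6% and 20.3%). KRT8, 1 of these 3, was at 27.1 and 24.9 CPM in the controls, against 22.9 and 6.46 CPM after knockdown (-0.82 ± 0.57 SE, edgeR adjusted p = 0.745). Listed leukocyte markers summed to 2.54 to 4.19 CPM in every library, with CD3E and PTPRC at no more than 2 counts.

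None of the 10 genes rose or fell by the quasi-likelihood test of edgeR, Benjamini-Hochberg adjusted over all tested genes, in which 0.0689% of genes were called. At an unadjusted p under 0.05 there were 0 of 10, against 7.49% of all tested genes, and DESeq2 called 0 of 10, against 1.18%. Their median log2 fold change was 0.08, or 0.07 without EHMT2, beside 0.00 over all tested genes. The sign was positive for 7 of 10, or 6 of 9 without EHMT2, against 50.5% of all tested genes. For 6 of 10 both knockdown libraries were higher than both controls, and for 0 of 10 both were lower. Over all tested genes 20.3% were higher and 20.6% lower in this way, 40.9% in all.

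**Figure D1:**
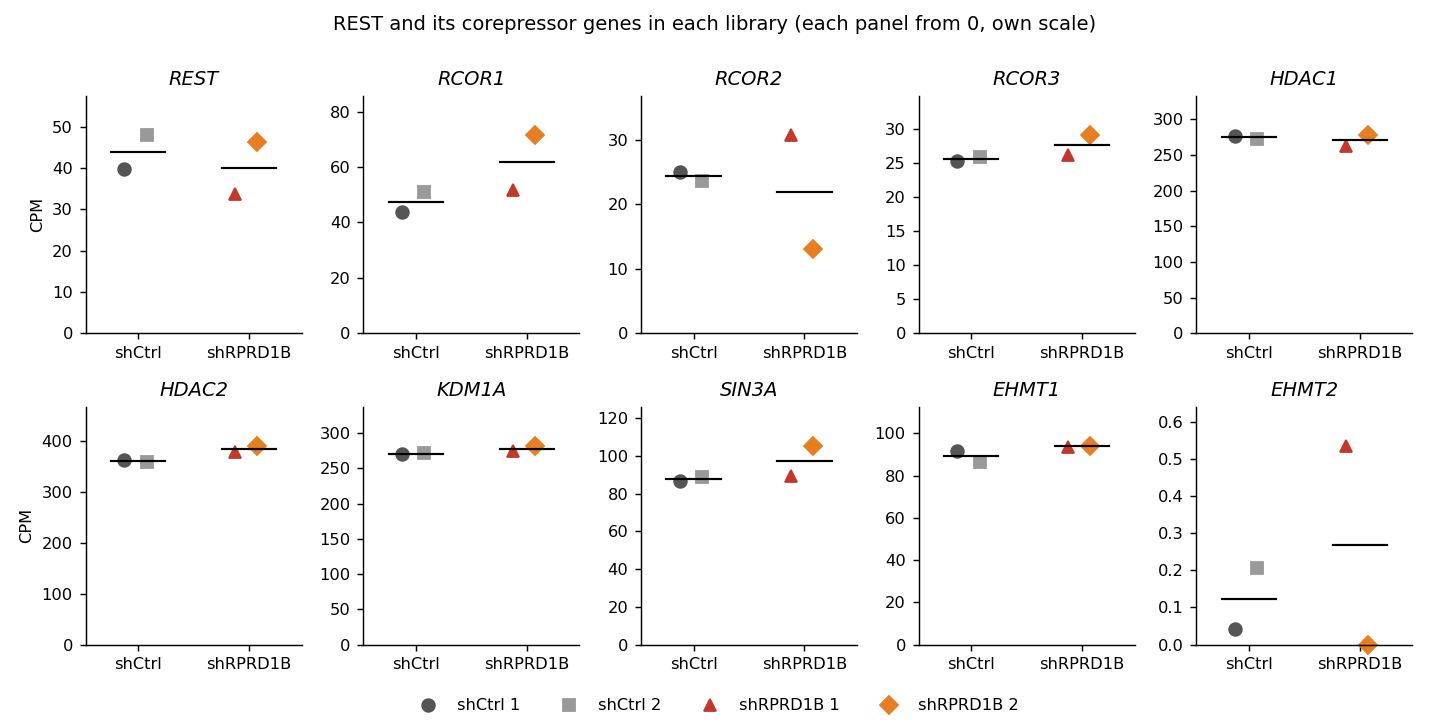
CPM of each gene in the 4 libraries, with group means as black lines. Each panel starts at 0 and has its own scale. HDAC1, HDAC2, KDM1A and EHMT1 are nearly level across libraries, RCOR2 is split between the shRPRD1B libraries (30.7 and 13.1 CPM), and EHMT2 is near 0.

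REST itself (ENSG00000084093.19, chromosome 4, 56907876 to 56966678, GRCh38) was at 39.7 and 47.9 CPM in the controls, against 33.7 and 46.2 CPM after knockdown. The lowest library was shRPRD1B 1 and the highest shCtrl 2, so the groups overlapped. Group means were 43.8 ± 5.81 CPM in shCtrl and 40.0 ± 8.88 CPM in shRPRD1B (SD, n = 2 each), a log2 fold change of -0.13 ± 0.19 SE (edgeR adjusted p = 0.862). Its 95% interval ran from 0.655-fold to 1.27-fold. A fall below 0.655-fold or a rise above 1.27-fold lay outside that interval, while smaller changes were not resolved. Between the shCtrl libraries REST differed by 0.27 on the log2 scale, more than 95.5% of genes of at least 5 CPM. The sign of the difference depended on the libraries used: it was 0.0090 without shCtrl 2, 0.080 without shRPRD1B 1 and -0.38 without shRPRD1B 2 (edgeR adjusted p = 0.9999, 0.624 and 0.0528). In a bulk sample, fewer cells with a transcript and less RNA per cell cannot be told apart.

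RCOR1 (ENSG00000089902.10, chromosome 14, 102592661 to 102730576), the CoREST scaffold, had the largest difference among the 9 genes with readable counts. It was at 43.8 and 51.0 CPM in the controls, against 51.9 and 71.5 CPM after knockdown. Both knockdown libraries lay above both controls, shRPRD1B 1 by less than 1 CPM above shCtrl 2. The log2 fold change was 0.38 ± 0.19 SE with a 95% interval from -0.08 to 0.84, and RCOR1 did not pass the test (edgeR adjusted p = 0.696). Without shRPRD1B 1 the value was 0.60 (edgeR adjusted p = 0.000208, with a lone knockdown library assumed to vary like the controls), and without shRPRD1B 2 it was 0.13 (adjusted p = 0.417).

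RCOR2 (chromosome 11, 63911221 to 63916844), whose product can take the place of RCOR1 in KDM1A complexes, was even in the controls and split in the knockdown. It was at 25.01 and 23.7 CPM in the controls, against 30.7 CPM in shRPRD1B 1 and 13.1 CPM in shRPRD1B 2. One knockdown library was thus above both controls and the other below both. The log2 ratio between the shRPRD1B libraries, -1.23, was larger in size than that of 98.5% of genes of at least 5 CPM. The fitted difference was -0.15 ± 0.38 SE (edgeR adjusted p = 0.93). It was -0.89 without shRPRD1B 1 and 0.34 without shRPRD1B 2, each called by edgeR with a lone knockdown library (adjusted p = 4.85e-05 and 0.028).

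RCOR3 (chromosome 1, 211258377 to 211316385), the other CoREST paralogue, showed little change. It was at 25.2 and 25.9 CPM in the controls, against 26.1 and 29.03 CPM after knockdown. The groups were close but did not overlap, and the log2 fold change of 0.11 ± 0.13 SE did not pass the test (edgeR adjusted p = 0.832).

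The deacetylase genes were among the steadiest of the 10. HDAC1 (chromosome 1, 32292086 to 32333635) was at 276 and 273 CPM in the controls, against 263 and 278 CPM after knockdown, with overlapping groups. Its log2 fold change was -0.02 ± 0.11 SE, with a 95% interval from 0.822-fold to 1.18-fold. HDAC2 (chromosome 6, 113933028 to 114011308) was at 363 and 360 CPM in the controls, against 379 and 390 CPM after knockdown. The knockdown libraries were higher, but the difference of 0.09 ± 0.10 SE did not pass the test (edgeR adjusted p = 0.83), and its 95% interval ran from 0.889-fold to 1.27-fold.

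KDM1A (chromosome 1, 23019443 to 23083689), the demethylase of the CoREST arm, differed least of the 10 between the shCtrl libraries on the log2 scale. It was at 270 and 271 CPM in the controls, against 274 and 281 CPM after knockdown. The groups did not overlap, although the libraries were all close, and the log2 fold change was 0.04 ± 0.10 SE (95% interval 0.86-fold to 1.23-fold).

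SIN3A (chromosome 15, 75369379 to 75455842), the scaffold of the N-terminal arm, was at 86.6 and 89.0 CPM in the controls, against 89.3 and 105 CPM after knockdown. The groups did not overlap, with shRPRD1B 1 close to the controls and shRPRD1B 2 higher. The log2 fold change was 0.15 ± 0.13 SE (edgeR adjusted p = 0.781). It was 0.26 without shRPRD1B 1, where edgeR called it with a lone knockdown library (adjusted p = 0.00904), and 0.03 without shRPRD1B 2 (adjusted p = 0.851).

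EHMT1 (GLP; chromosome 9, 137618963 to 137870016) stood at 91.7 and 86.6 CPM in shCtrl and at 93.8 CPM in both shRPRD1B libraries. The knockdown libraries lay slightly above the controls, and the difference of 0.07 ± 0.11 SE did not pass the test (edgeR adjusted p = 0.867).

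EHMT2 (G9a) had 2, 10, 35 and 0 counts in shCtrl 1, shCtrl 2, shRPRD1B 1 and shRPRD1B 2. The counts overlapped between groups, and with a floor of 3 counts a library no fold is given. EHMT2 lies on chromosome 6 from 31879759 to 31897687 in GRCh38, in the major histocompatibility region. Of 38 protein-coding neighbours within 250 kb, 31 were under 1 CPM in every library and 14 had 0 counts throughout, or 81.6% under 1 CPM against 33.6% of all 19153 protein-coding genes matched. Examples chosen after their values were seen are CSNK2B, the regulatory subunit of casein kinase 2, with 0 to 6 counts, and NELFE, a pausing factor subunit, with 9 to 26 counts. Others were counted, and unevenly. The counts of VARS1, a tRNA synthetase gene, were 293 and 25 in the controls against 1872 and 69 after knockdown, and SKIC2, an RNA helicase gene, had 2, 90, 1037 and 87 in the same order. With neighbours low or uneven in this way, the EHMT2 count is not read here as its transcript level. How reads mapping to several places were counted is not given in the sources used here, and the part of that step was not tested.

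**Figure D2:**
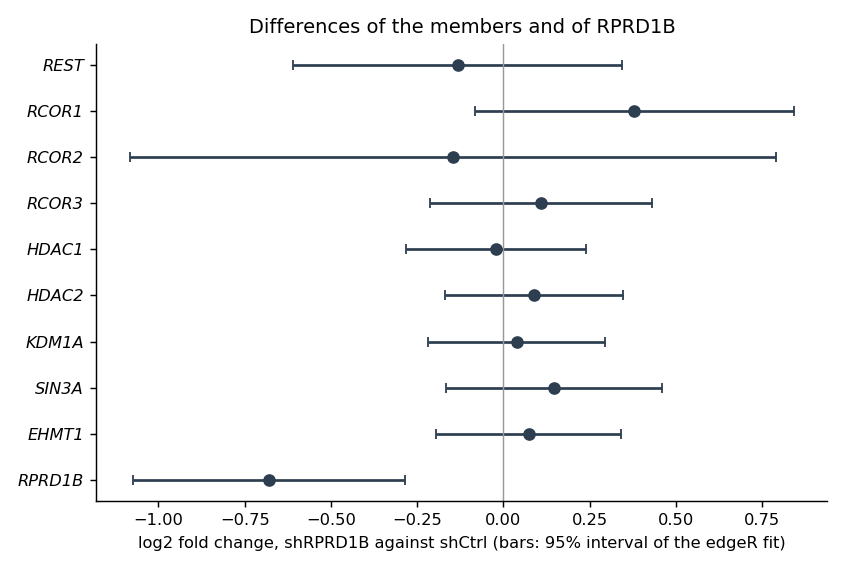
Log2 fold change of 9 members and of RPRD1B with 95% intervals from the edgeR fit. Every member's interval includes 0, and the interval of RPRD1B runs from -1.08 to -0.29. EHMT2 is left out because of its low counts.

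Levels were compared between genes per kb of the union of exons in GENCODE 29. HDAC1 was highest at 69.3 ± 0.578 CPM per kb in shCtrl (SD, n = 2), followed by KDM1A at 49.7 ± 0.178 and HDAC2 at 23.4 ± 0.142. Each of these was above the next in all 4 libraries, with no overlap. RCOR2 (8.89 ± 0.347), RCOR1 (7.64 ± 0.823) and SIN3A (7.05 ± 0.136) formed a middle group whose neighbours overlapped across libraries. REST stood at 5.49 ± 0.727 CPM per kb and overlapped with EHMT1 (4.01 ± 0.162), and RCOR3 was lowest at 2.81 ± 0.0534. The order of the lower 6 depended on the length used. Per kb of 1 coding transcript, REST was the lowest of 9 at 5.999 CPM per kb, while HDAC1, KDM1A and HDAC2 stayed on top at 129, 88.4 and 36.6. The enzymes HDAC1 and KDM1A were therefore far above the DNA-binding member and the CoREST scaffolds on either length.

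Paralogue shares within a library do not depend on the scaling between libraries. HDAC1 made up 74.8% and 74.7% of the summed HDAC1 and HDAC2 signal (CPM per kb) in shCtrl and 73.0% and 73.5% in shRPRD1B. Both knockdown shares were lower, by more than the range within either group. The difference between group means was small (74.8% and 73.3%), and with 2 against 2 no two-sided exact permutation p can be under 0.333. Among the CoREST paralogues, RCOR1 made up 37.2% and 41.7% in shCtrl and 37.2% and 59.1% in shRPRD1B. RCOR2 made up 48.2% and 43.9% in shCtrl and 49.98% and 24.5% in shRPRD1B. RCOR2 held the largest share in both controls and, above both of them, in shRPRD1B 1, and RCOR1 held the largest share in shRPRD1B 2. RCOR3 made up 12.8% to 16.4% in the 4 libraries. Per kb of 1 transcript RCOR3 was instead the largest, with a mean of 41.6% in shCtrl, so the order of these paralogues depends on the length used.

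**Figure D3:**
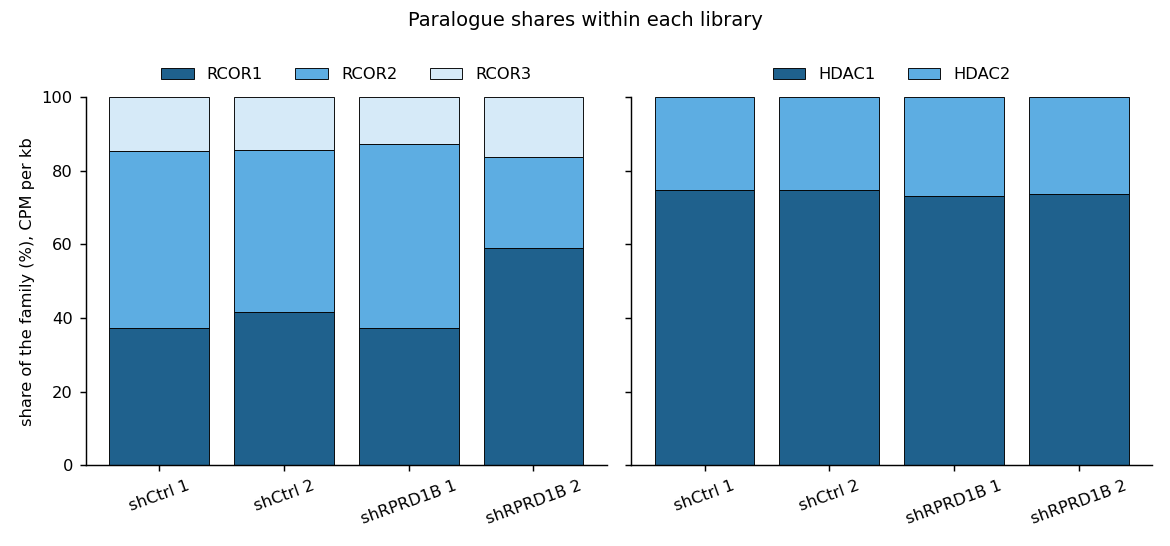
Share of each paralogue in the summed CPM per kb of its family, by library (stacked bars from 0 to 100%). HDAC1 holds 73.0% to 74.8% in each library, and the RCOR2 share is 24.5% in shRPRD1B 2 and at least 43.9% in the other libraries.

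Among 11441 other genes of at least 5 CPM with a symbol, those whose centred log2 CPM over the 4 libraries lay closest to REST were FGD6, CACNA2D1 and ZNF180. Their Euclidean distances to REST were 0.043, 0.050 and 0.051. FGD6, for example, was at 10.8 and 12.7 CPM in the controls, against 8.85 and 12.6 CPM after knockdown. Like REST, all 3 were higher in replicate 2 than in replicate 1 of each group, and none passed edgeR's test (adjusted p from 0.847 to 0.88). They were picked on these same values, so this likeness follows from the choice. The nearest corepressor, HDAC1, ranked 2800 by this distance.

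Partners of the CoREST complex gave 10 tested genes, of which edgeR and DESeq2 called 0, with a median log2 fold change of -0.04. At an unadjusted p under 0.05, 0 were higher and 1 lower (all genes: 3.55% and 3.94%). That gene was CTBP1, a corepressor that binds the complex, at 168 and 161 CPM in the controls against 122 and 137 CPM after knockdown (-0.34 ± 0.12 SE, edgeR adjusted p = 0.634). The value of CTBP1 was -0.26 without shRPRD1B 1 and -0.43 without shRPRD1B 2. ZMYM2 and ZMYM3, zinc finger partners of KDM1A complexes, gave 0.26 ± 0.13 and 0.23 ± 0.11.

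Partners of the SIN3 complex gave 15 tested genes with a median of 0.12, of which edgeR and DESeq2 called 0. At an unadjusted p under 0.05, 1 was higher and 3 lower (all genes: 3.55% and 3.94%). SAP130 was at 46.8 and 49.2 CPM in the controls, against 56.5 and 73.5 CPM after knockdown (0.44 ± 0.16 SE). RBBP7, a histone chaperone shared with other deacetylase complexes, was at 519 and 522 CPM in the controls, against 437 and 414 CPM after knockdown (-0.29 ± 0.11 SE). SAP30 gave -0.29 ± 0.11 and BRMS1 -0.29 ± 0.12. The edgeR adjusted p of these 4 ran from 0.656 to 0.665. The SIN3 partner median was 0.040 without shRPRD1B 2, and without shRPRD1B 1 edgeR called 5 higher and 3 lower, where it called 3139 and 3096 of all genes.

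The H3K9 group held 6 tested genes, the G9a and GLP partners WIZ, ZNF644 and CDYL and the heterochromatin proteins CBX1, CBX3 and CBX5. None was called or at an unadjusted p under 0.05, and the median was 0.12. That median was 0.025 without shRPRD1B 2 and 0.20 without shRPRD1B 1. ZNF644 gave 0.29 ± 0.22 SE, CBX1 0.14 ± 0.12, CDYL 0.13 ± 0.12 and CBX5 0.10 ± 0.12. Other factors that REST recruits gave 6 tested genes, among them the small CTD phosphatases CTDSP1, CTDSP2 and CTDSPL, the demethylase KDM5C and the remodeller SMARCA4. None of the 6 was called or at an unadjusted p under 0.05, and the median was 0.08. CTDSP1 gave 0.09 ± 0.11 SE, CTDSP2 0.09 ± 0.11, KDM5C 0.08 ± 0.13 and SMARCA4 0.08 ± 0.11.

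Other complexes with class I deacetylases (NCoR and NuRD) gave 15 tested genes of 16 with a median of 0.11, and edgeR called 0. DESeq2 called 1 higher, GATAD2B, a NuRD subunit, at 2.93 and 4.71 CPM in the controls against 10.7 and 7.41 CPM after knockdown (1.25 ± 0.31 SE, edgeR adjusted p = 0.481, DESeq2 adjusted p = 0.0203). GATAD2B was also the 1 gene of that list at an unadjusted p under 0.05. MTA2 gave 0.23 ± 0.11, MBD3 0.25 ± 0.12 and TBL1XR1 0.18 ± 0.11. With a lone knockdown library GATAD2B gave 0.95 (without shRPRD1B 1) and 1.49 (without shRPRD1B 2).

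Regulators of REST gave 7 tested genes of 8 with a median of 0.03, with 0 called and 0 at an unadjusted p under 0.05. TERF2, a telomere protein that binds and stabilises REST, was at 46.2 and 48.8 CPM in the controls, against 54.9 and 55.0 CPM after knockdown (0.21 ± 0.11 SE, edgeR adjusted p = 0.706). USP7, a deubiquitinase of REST, gave 0.16 ± 0.16, FBXW11, a ubiquitin ligase subunit and paralogue of BTRC, 0.10 ± 0.11, and PRICKLE1, a REST-binding protein, -0.14 ± 0.20. SRRM4, the neuronal splicing factor that turns REST into its short REST4 form, was not tested, with 0, 6, 0 and 6 counts. The counts are per gene, so REST isoforms were not analysed here.

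Genes that REST is known to repress were higher in the knockdown libraries for most of the list. Of 32 listed REST target genes 28 were tested, and 11 of these averaged at least 5 CPM over the libraries. In the other corepressor and regulator lists together, 58 of 59 tested genes did. Among the 28 targets, edgeR called 2 higher and 0 lower (all genes: 0.0295% and 0.0394%). At an unadjusted p under 0.05, 18 were higher and 0 lower, against 3.55% and 3.94% of all tested genes. DESeq2 called 12 higher and 0 lower, where it called 126 and 114 of all 20319 tested genes. The list median was 0.98 on the log2 scale, 0.93 in each shRPRD1B library set against the mean of the controls. Both knockdown libraries lay above both controls for 22 of 28, and for 0 did both lie below (all genes: 20.3% and 20.6%). SYT4 is among the 18 and the 22, and enters the list median. It had 4 and 0 counts in the controls against 24 and 57 after knockdown. It thus passed the low-count filter only through the knockdown libraries, and its direction is no support. The list was written with earlier results of these data known, SYP and CPLX1 among them, so it is not independent evidence of its direction. The count of edgeR calls was 4 without shCtrl 1, 3 without shCtrl 2, 19 without shRPRD1B 1 and 17 without shRPRD1B 2, with 0 by limma voom. Over all genes, edgeR called 20, 12, 3139 and 1269 higher in these 4 fits, against 6 with all libraries, so calls became more frequent among all genes too.

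SYP, a membrane protein of synaptic vesicles, was at 27.5 and 24.2 CPM in the controls, against 77.3 and 78.0 CPM after knockdown. CPLX1, which controls vesicle fusion, was at 13.7 and 13.3 CPM in the controls, against 42.8 and 46.9 CPM after knockdown. These were the 2 that edgeR called (1.59 ± 0.13 SE, adjusted p = 0.0434, and 1.73 ± 0.13 SE, adjusted p = 0.0414), and SYP was not called without shCtrl 2 (edgeR adjusted p = 0.0815), with limma voom (0.0621), with at least 5 CPM in 2 libraries (0.0621) or by edgeR's older quasi-likelihood fit (0.054). CPLX1 was not called with limma voom (0.0621) or with at least 5 CPM in 2 libraries (0.0552). UNC13A, a vesicle priming factor, was at 2.11 and 2.84 CPM in the controls, against 14.9 and 24.4 CPM after knockdown (2.98 ± 0.32 SE, edgeR adjusted p = 0.0785). SCG3, a granin of dense-core granules, was at 0.76 and 0.719 CPM in the controls, against 7.42 and 12.9 CPM after knockdown (3.77 ± 0.40 SE, edgeR adjusted p = 0.0775). DESeq2 called all 4.

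For 6 of the 28 the groups overlapped. These were SCN2A, GRIA2, BDNF, TUBB3, NEFH and MAPK8IP1. STMN2, CHGA, SCG2 and GLRA1 were not tested, with 0 to 25 counts in a library. Of 8 neuron markers listed separately, 4 were tested, 0 were called, and 2 had an unadjusted p under 0.05, both with higher values (all genes: 3.55%). These were RBFOX3 and ELAVL4. ELAVL4 had 2 and 7 counts in the controls against 25 and 20 after knockdown. It passed the low-count filter only through the knockdown libraries, so its direction is no support for a rise. The summed level of the 8 markers was 11.98 to 12.5 CPM in shCtrl and 14.6 to 20.2 CPM in shRPRD1B, with SLC17A6 at 0 counts in every library and DCX at 0 to 2. RBFOX3, a neuronal splicing factor, was at 7.32 and 6.68 CPM in the controls, against 15.1 and 9.63 CPM after knockdown (0.83 ± 0.26 SE, edgeR adjusted p = 0.595). SLC17A7, a vesicular glutamate transporter gene, lay the other way, at 3.72 and 4.13 CPM in the controls and 3.22 and 3.03 CPM after knockdown (-0.33 ± 0.21 SE, edgeR adjusted p = 0.733). Fibroblast markers summed to 30.5 to 35.8 CPM in shCtrl and 20.6 to 22.1 CPM in shRPRD1B, with COL1A2 at 0 counts and COL1A1 making up most of each sum. Of 3 tested, COL1A1 and LUM were lower at an unadjusted p under 0.05 (all genes: 3.94%), DESeq2 called LUM lower (adjusted p = 0.0217), and PDGFRB gave 0.52 ± 0.42 SE. The part of these differences in the target list was not tested.

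**Figure D4:**
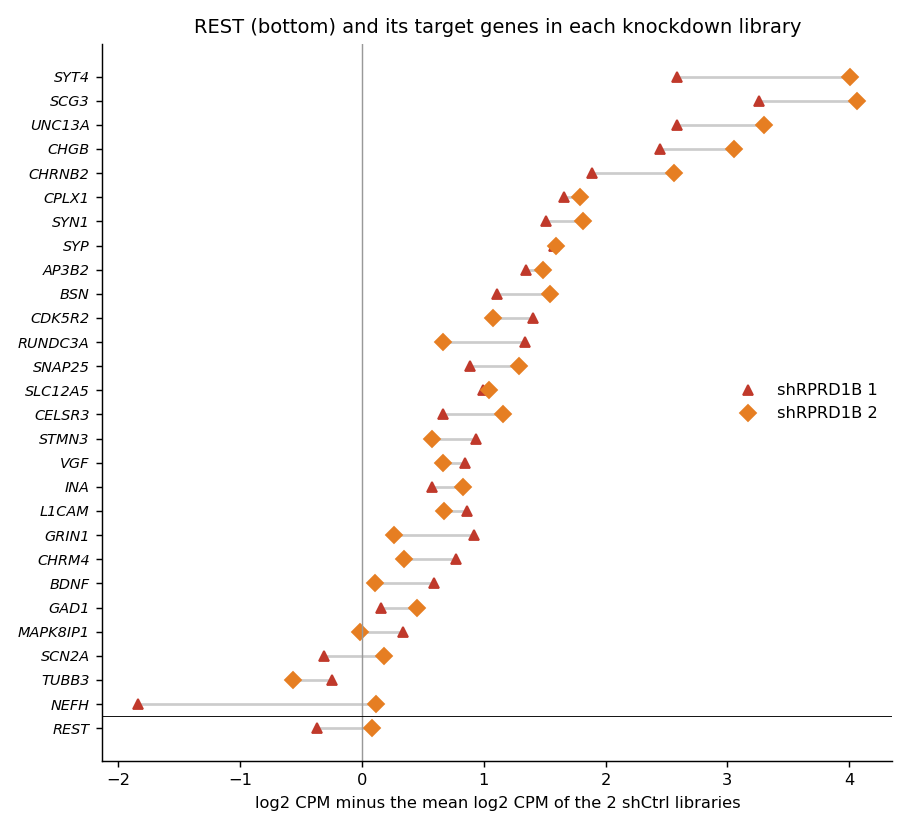
REST (bottom row) and 27 of its tested target genes with a mean of at least 0.5 CPM in either group: log2 CPM (prior count 2) of each shRPRD1B library minus the mean of the shCtrl libraries. SYT4, CHRNB2 and BDNF reached that mean only in shRPRD1B. The REST points fall on both sides of 0, and those of CPLX1 and SYP lie above 1.5.

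Sequence at the start of these genes was searched for the RE1 consensus, because that element is where REST and the corepressors meet DNA. The search covered RefSeq promoter windows (GRCh38.p14, 250 bases before to 50 after a start, both strands) with the 16-letter RE1 consensus. It matched windows of 21 of 27305 genes (0.0769%), and 2 of the 23 listed target genes with a window, GRIA2 and SYN1. It matched none of the 12 windows of the 9 members that had one, which says only that these letters are absent there. The matches are shown because the values of these 2 listed targets follow, with the consensus in capitals and 5 flanking bases on each side, read 5′ to 3′ on the minus strand of the chromosome.
SYN1 (chrX:47620069-47620094): cagctTCAGCACCGCGGACAGtgcct
GRIA2 (chr4:157220387-157220412): gccttTCAGCACCGAGGACAGcgcct

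SYN1, the synapsin gene of synaptic vesicles, was chosen with GRIA2 after their values were seen. It was at 0.591 and 0.74 CPM in the controls, against 1.95 and 2.43 CPM after knockdown (1.71 ± 0.32 SE, edgeR adjusted p = 0.322, DESeq2 adjusted p = 0.0185). GRIA2, an AMPA receptor subunit, had 9, 13, 10 and 16 counts in shCtrl 1, shCtrl 2, shRPRD1B 1 and shRPRD1B 2 (-0.08 ± 0.60 SE, edgeR adjusted p = 0.978). The groups overlapped for GRIA2 and not for SYN1. The difference between the 2 genes was not tested, and the interval of GRIA2, from -1.56 to 1.40, is wide.

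**Figure D5:**
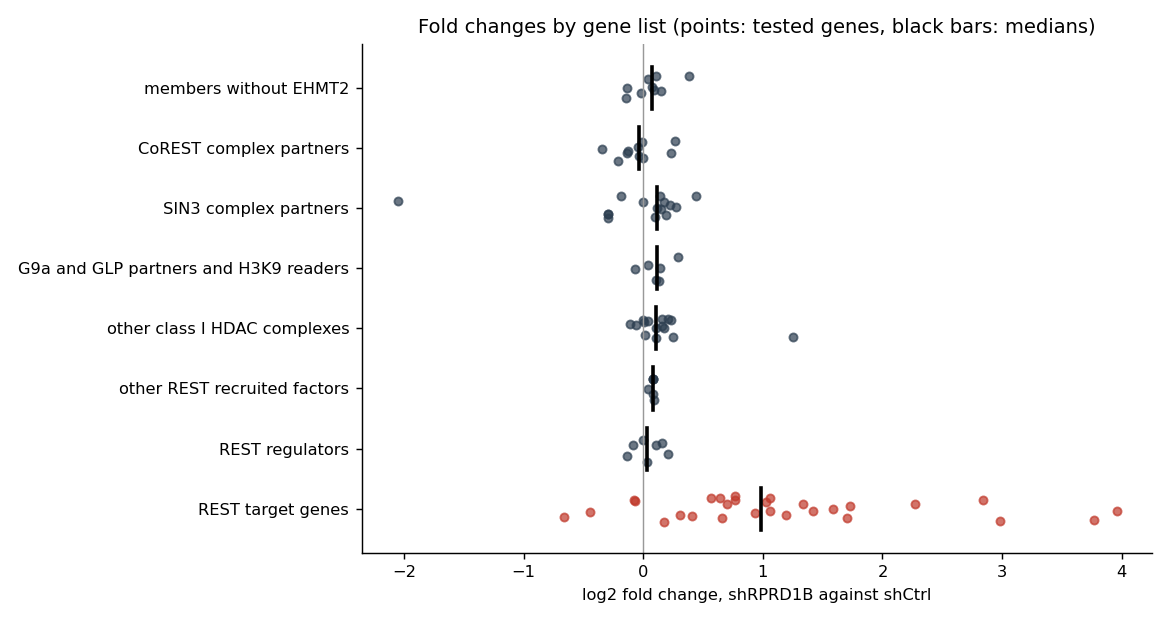
Log2 fold change of the tested genes in 8 lists, with list medians as black bars. EHMT2 is left out of the members and of their median because of its low counts. The medians of the 7 corepressor and regulator lists lie between -0.04 and 0.12, and that of the REST target genes is 0.98.

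The 3′ UTR word ACTAGC, picked in earlier work on the fold changes of these same libraries, was looked up in the members as a description. In 1 coding transcript per gene (GENCODE 29) it occurs in the 3′ UTR of REST, RCOR3, HDAC2 and SIN3A, 4 of 10, and in 13.7% of 13824 tested genes. The median 3′ UTR length was 909 bases for the members and 1001 bases for those genes. Among members with the word the length was 3692 (REST), 251 (RCOR3), 8030 (HDAC2) and 2600 bases (SIN3A). Among those without, it was 4070 bases for RCOR1 and 324 to 1174 bases for the others. The part of 3′ UTR length in the share with the word was not tested. None of the 4 members with the word passed the test in either direction, and their values ran from -0.13 to 0.15.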

How the data were processed

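The authors deposited whole-number read counts per gene, 1 file for each of 4 libraries. The submitters' processing notes name Trim Galore, HISAT2, featureCounts and hg38. Tool versions, annotation release, strandedness and multi-mapping: not given in the sources used here, so reads of overlapping genes cannot be told apart. The members and lists were chosen with earlier results of these data known.

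Counts were tested with edgeR 4.0.16 (R 4.3.3): filterByExpr with a minimum count of 10, TMM factors, a robust quasi-likelihood fit with group as the only term, and Benjamini-Hochberg adjustment with a threshold of 0.05. The planned test did not name a version of this fit. The older version was run first and called 7 genes (4 higher, 3 lower), and 3 other settings were then tried: another dispersion estimate, the newer version, and the newer version with unfiltered library totals. The newer version, with 14 calls, was adopted after these counts had been seen, to match earlier processing of these data. The older one is an added alternative, and neither called a member. On simulated counts of 19793 genes the newer version recovered 69% of genes changed 2-fold and 99% of those changed 4-fold, with 28 false calls among 196, and the older version made 29 among 196. Both exceeded the nominal false share of 0.05.

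Fold changes are shRPRD1B against shCtrl, with 95% intervals. Other alternatives were DESeq2 1.42.0, limma voom (limma 3.58.1), other size factors and filters, the replicate number as a block, and each library left out (a lone library is then assumed to vary like the other group). Symbols matched 62686 of 69222 identifiers. Named genes were the members, RPRD1B, up to 4 per list with the smallest p, called targets, and the 3 genes closest to REST. Other genes are named as list contents or after their values were seen. Some listed genes are counted but not reported here by name. The libraries of a group differed beyond counting noise (chi-square over its degrees of freedom, 8.97 in shCtrl and 98.6 in shRPRD1B). Within a group, neither library was thus a copy of the other's counts. This value cannot tell separate cultures from technical replicates. The floor of 3 counts covers counting error only.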

Additional observations from a re-analysis of the deposited data

How the results depend on the processing

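No alternative with all 4 libraries called any of the 10 members, and REST kept its sign under each of these. With 1 library left out, log2 fold changes ran from -0.38 to 0.080 for REST, -0.89 to 0.34 for RCOR2, -0.059 to 0.018 for HDAC1 and -0.88 to -0.50 for RPRD1B. Members called higher then numbered 0 to 2 and lower 0 to 1, with member medians of 0.052 to 0.093. That median was 0.055 with upper-quartile factors and 0.056 with limma voom. The fitted values of EHMT2, which at its counts estimate no fold, were 1.19 with all libraries, -0.45 with limma voom and 0.47 to 2.69 under the other alternatives. RPRD1B passed with DESeq2 (-0.68). Target genes called higher numbered 12 with DESeq2, 0 with limma voom, 6 with no low-count filter, 0 with at least 5 CPM in 2 libraries, 1 with edgeR's older quasi-likelihood fit (chosen after seeing the data) and 3 to 19 with a library left out, and 0 to 1 were lower. Their median was 1.05 with no filter, 1.32 with at least 5 CPM, and 0.87 to 1.01 with a library left out. All genes called higher and lower were 126 and 114 with DESeq2, 0 and 0 with limma voom, 23 and 17 with no filter, 0 and 0 with at least 5 CPM, 4 and 3 with the older fit, and 12 to 3139 and 36 to 3096 with a library left out. The spread against which list medians were judged was widened, from the knockdown libraries to the larger of both groups, after most target medians had counted as moved.

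The replicate block gave 85 genes higher and 56 lower, 8 target genes higher, 0 members called and -0.14 for REST; same-numbered libraries correlated at 0.151 in their deviations, and the labels give only a number. Further signs turned with a library left out. ZNF644 ran from -0.052 to 0.57, KDM5C from -0.050 to 0.20, USP7 from -0.064 to 0.35, PRICKLE1 from -0.30 to 0.040, FGD6 from -0.41 to 0.10, CACNA2D1 from -0.33 to 0.061 and ZNF180 from -0.36 to 0.030. The NCoR and NuRD median ran from -0.0076 to 0.17 and the REST regulator median from -0.064 to 0.14. By raw counts HDAC1 made up 43.2% and RCOR1 48.7% of their families in shCtrl, and HDAC2 stood 6.11 times as high as REST per kb of 1 transcript, against 4.27 times per kb of exon union. The causes were not tested. EHMT2 had no value with at least 5 CPM in 2 libraries or without shRPRD1B 1, so the member medians there cover 9 genes.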

Other observations

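Ratios within a library do not depend on scaling. RCOR1 stood at 1.10 and 1.06 times the CPM of REST in shCtrl 1 and 2 and at 1.54 and 1.55 times in shRPRD1B 1 and 2. Both genes differed between libraries of a group, while their ratio was nearly the same within each group. The pair was singled out after its values were seen. It is 1 of 12 member pairs of 36 whose ratio did not overlap between groups in either direction. A share over all gene pairs is not given here. Of the 8 member pairs with REST, 2 did not overlap. Among 11540 genes of at least 5 CPM the ratio to REST did not overlap for 29.4%. For 27.4% it was above both controls in both knockdown libraries.

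SINHCAF, a SIN3 complex subunit chosen after its values were seen, had 435 counts in shCtrl 1 and 45 in shCtrl 2, with 81 and 65 in shRPRD1B, so that 1 control library stood apart.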
